A study of Mus musculus with 12 samples.

Results

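The genes described here are 38 genes of the G2 phase and mitosis of the cell cycle, taken by name from a list, by a rule that uses no measured difference. A gene was represented by the probe set with the highest mean signal over 12 arrays among those the platform annotation gives to that gene alone. Of the 38, 37 had such a probe set, of 18193 genes represented in this way on the array. *Ccnb1*, which encodes cyclin B1, is not named by the annotation used here and was not measured. The 37 genes together had 81 probe sets, and 23 genes had more than 1.

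The tissue was the nasal and the maxillary prominence of mouse embryos at E10.5, embryonic swellings that grow together to make the upper lip and primary palate. Neo/Null embryos (NeoNull, aflox/null in the labels) carry the Neo allele of *Tfap2a*, in which a neomycin resistance cassette lies within the gene, over a null allele. The controls, named Neo/Wt here (aflox/wt in the labels), carry the same Neo allele over a wild-type allele, so that every embryo had 1 Neo allele and no group was wild type. Tissue of several embryos was pooled, with 3 independent pools for each of the 4 groups and 12 Affymetrix arrays in all, from mice of an outbred Black Swiss background, and how many embryos made a pool is not given in the sources used here. *Tfap2a* encodes AP-2α, a transcription factor of the facial ectoderm and neural crest.

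Cells that leave G2 do so when Cdk1 bound to a B-type cyclin is switched on by Cdc25 phosphatases. Mitotic kinases, the chromosomal passenger complex, the kinetochore and spindle motors then align and part the chromosomes, the spindle checkpoint holds back the anaphase-promoting complex until they are aligned, and the midzone proteins drive cytokinesis. The transcripts of these genes accumulate late in the cycle, and in a growing tissue they are used as markers of dividing cells. Proliferation was one of the processes examined in the embryos of this model, and the arrays allow the question of whether the transcripts of dividing cells differed between genotypes and between prominences.

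All 37 genes were called present by the authors in all 4 groups. The values are log2 signals, and a difference is Neo/Null minus Neo/Wt, or nasal minus maxillary tissue, on the log2 scale. In such bulk samples fewer dividing cells and less transcript per dividing cell cannot be told apart. Signal of 1 probe set was not set against that of another.

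On the arrays as a whole, 0 of 21213 probe sets in maxillary and 1 of 21088 in nasal tissue passed an adjusted p of 0.05 for genotype. The 3 probe sets of *Tfap2a* differed by -0.15 to 0.13 between genotypes. Where they lie relative to the Neo and null changes is not known here, so they do not check the labels. Of the markers of facial crest mesenchyme 9 of 11 were called present in every group, as were 8 of 10 of surface ectoderm. The Neo/Wt maxillary pool of replicate 3 stood apart in its neuronal genes. The 12 markers of differentiating neurons averaged 7.84, 8.14 and 7.56 in the Neo/Null maxillary pools, against 7.78, 7.52 and 5.715 in those of Neo/Wt. Values without that pool are given for *Ect2*, for *Cdc25b* in Neo/Wt, for the neuronal markers and, between genotypes, for surface ectoderm and crest markers.

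The promoters of these genes share sequence. Promoters from RefSeq (GRCm38.p6), from 250 bases before to 50 bases after an annotated start, were at hand for 32 of the 38 genes and 35 starts. The search was for TTTGAA or TTCGAA, the letters of the cell cycle homology region through which MuvB complexes act on late cell cycle genes, and for CCAAT, the box bound by NF-Y, on either strand (TTCGAA reads the same on both). TTTGAA or TTCGAA lay in 82.9% of the 35 promoters, against 19.2% of 32851 promoters of all genes. CCAAT lay in 80.0%, against 37.4% of all promoters, and 2 or more CCAAT boxes in 57.1%, against 11.7%. Both kinds of letters together were found in 74.3% of the members' promoters, against 7.5% of all. The letters GCCNNNGGC, a palindrome bound by AP-2 proteins, lay in 28.6%, against 16.6% of all. A match of letters is a description and does not show that a factor binds.

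The 150 bases before the start are shown for 4 genes of mitotic entry, anaphase and chromosome structure and for the 3 genes that passed a test between prominences. Capitals mark the letters searched for, on either strand.
Cdk1 (chr10:69352913-69353062, minus strand): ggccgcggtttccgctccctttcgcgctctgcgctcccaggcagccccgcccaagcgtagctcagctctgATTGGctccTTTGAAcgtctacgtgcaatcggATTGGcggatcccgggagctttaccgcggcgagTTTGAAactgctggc
Cdc20 (chr4:118437344-118437493, minus strand): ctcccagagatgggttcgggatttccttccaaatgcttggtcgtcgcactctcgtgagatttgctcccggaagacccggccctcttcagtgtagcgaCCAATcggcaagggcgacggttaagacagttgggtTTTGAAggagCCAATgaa
Mki67 (chr7:135716380-135716529, minus strand): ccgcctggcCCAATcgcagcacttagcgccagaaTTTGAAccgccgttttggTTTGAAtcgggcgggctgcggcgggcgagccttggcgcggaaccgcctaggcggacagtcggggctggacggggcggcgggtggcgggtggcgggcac
Top2a (chr11:99024190-99024339, minus strand): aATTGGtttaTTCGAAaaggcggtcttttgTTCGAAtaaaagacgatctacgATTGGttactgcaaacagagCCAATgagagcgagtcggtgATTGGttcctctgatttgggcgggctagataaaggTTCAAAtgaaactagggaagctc
Ect2 (chr3:27153855-27154004, minus strand, 1 of its 2 starts): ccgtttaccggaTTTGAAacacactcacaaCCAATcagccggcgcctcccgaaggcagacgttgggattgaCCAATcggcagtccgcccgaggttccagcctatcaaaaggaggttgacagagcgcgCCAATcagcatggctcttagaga
Cdca8 (chr4:124936918-124937067, minus strand): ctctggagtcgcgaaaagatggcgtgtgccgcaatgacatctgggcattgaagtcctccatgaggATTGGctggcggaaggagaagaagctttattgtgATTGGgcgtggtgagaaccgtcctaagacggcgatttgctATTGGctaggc
Cdc25b (chr2:131186798-131186947, plus strand): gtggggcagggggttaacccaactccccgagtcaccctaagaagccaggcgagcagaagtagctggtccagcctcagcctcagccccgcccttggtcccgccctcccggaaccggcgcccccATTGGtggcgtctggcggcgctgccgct
The stretch of *Cdk1* holds TTTGAA 15 and 71 bases before the start and CCAAT 48 and 80 bases before it. In *Cdca8* and *Cdc25b* the only TTTGAA or TTCGAA match lies after the start and is not shown.

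The transcripts of these genes differed little between genotypes. In nasal tissue 0 of 37 genes passed the adjusted threshold, against 0.00474% of all probe sets tested, and in maxillary tissue 0 of 37, against 0%. At an unadjusted p under 0.05 the counts were 0 of 37 in nasal tissue (3.88% of all probe sets) and 2 of 37 in maxillary tissue (4.97%), where *Ect2* was the gene above Neo/Wt and *Cdc25c* the gene below it. A difference of over 0.32 on the log2 scale, in either direction, was seen in 0 of 37 members in nasal tissue (1.06% of probe sets) and in 0 of 37 in maxillary tissue (1.78%).

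The intervals of these differences were narrow. In nasal tissue the 95% interval lay wholly within 0.32 of 0 for 36 of 37 genes, against 70.8% of all probe sets, and the gene outside was *Cdc25b*. In maxillary tissue it did so for 33 of 37 genes, against 70.7%, and the genes outside were *Cdc25b*, *Cdc25c*, *Ndc80* and *Ect2*. Averaged over both prominences it did so for 37 of 37, against 90.9%, and for the difference between the prominences' genotype effects for 31 of 37, against 37.3%. Both of these comparisons called 0 of 37 members at the adjusted threshold, against 0% of probe sets. The median SD within groups was 0.055 for the members and 0.091 for 9786 genes called present in every group. Each member was taken by its brightest probe set, while the shares of all probe sets also count the dimmer ones of a gene. Spread was not compared at equal signal.

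The median difference of the members was 0.00 in nasal tissue, where that of all genes tested was 0.03, and -0.02 in maxillary tissue, where that of all genes was also -0.02. In nasal tissue 19 of 37 members lay above 0, against 62.8% of probe sets, and this count was 8 when each array was centred on its median and 17 after quantile normalization. In maxillary tissue 27 of 37 lay below 0, and 26 and 27 did so under those scalings, where 47.9% of all probe sets lay above 0. The pools of the 2 genotypes did not overlap for 3 of 37 members in nasal tissue (8.19% of all probe sets) and for 6 of 37 in maxillary tissue (11.6%). In nasal tissue 1 was higher in Neo/Null (6.22% of probe sets) and 2 were lower (1.97%), and in maxillary tissue 1 was higher (6.41%) and 5 were lower (5.22%).

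**Figure D1:**
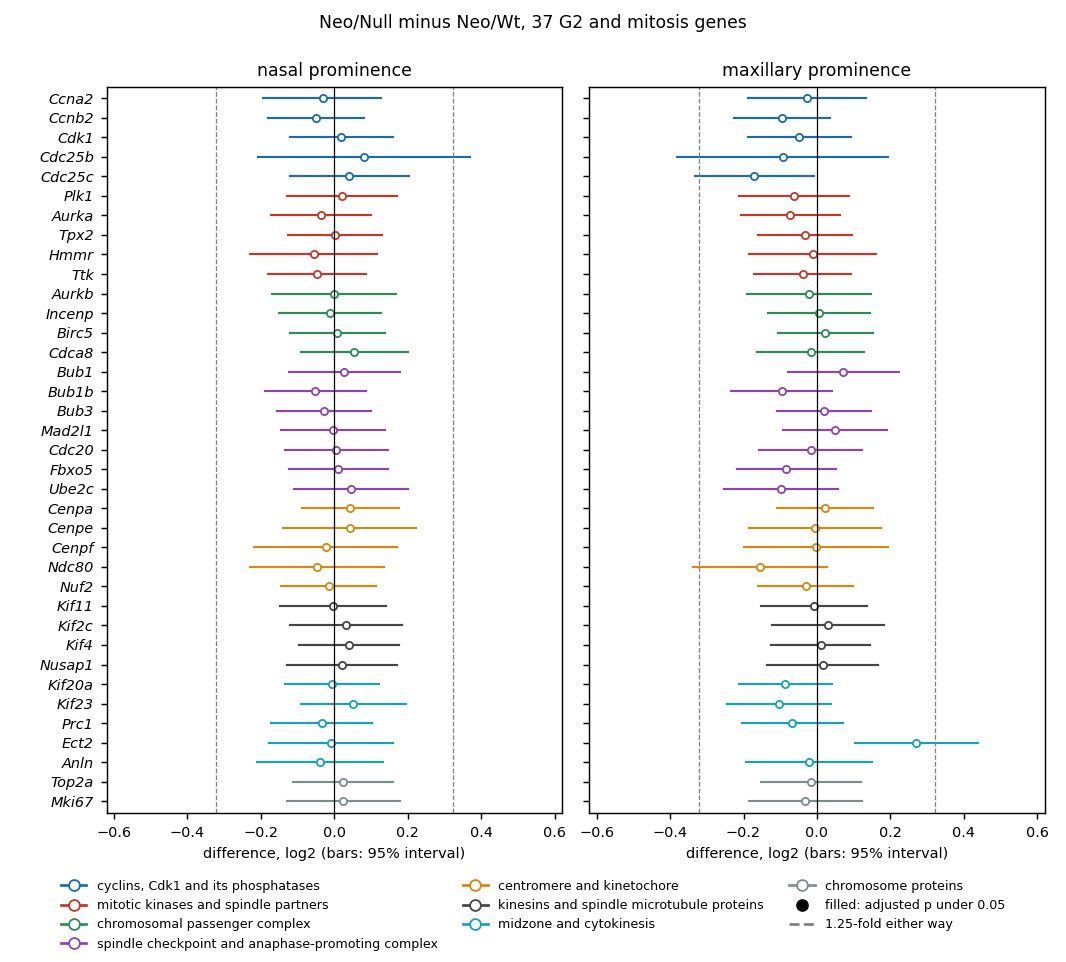
Difference between Neo/Null and Neo/Wt for each of the 37 genes, in log2 units, in nasal (left) and maxillary (right) prominences, with 95% intervals and dashed lines at 0.32 on either side of 0. No point is filled, since 0 genes passed the adjusted threshold, and *Ect2* in maxillary tissue, at 0.27, lies farthest from 0.

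Among the cyclins, Cdk1 and the Cdc25 phosphatases, *Cdk1*, the kinase that drives entry into mitosis, had log2 signals of 11.72, 11.70 and 11.64 in Neo/Null nasal pools, against 11.60, 11.68 and 11.71 in Neo/Wt nasal pools. In maxillary tissue it had 11.70, 11.64 and 11.76 in Neo/Null, against 11.70, 11.77 and 11.77 in Neo/Wt. The genotypes overlapped in both prominences, with differences of 0.02 ± 0.06 and -0.05 ± 0.06 (SE, n = 3 pools each). *Ccnb2*, cyclin B2, was lower in every Neo/Null nasal pool (10.95, 10.96 and 10.90) than in any Neo/Wt nasal pool (10.97, 11.002 and 10.99), but the difference of -0.05 was within its error (adjusted p = 1). *Ccna2*, cyclin A2, differed by -0.03 in both prominences.

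*Cdc25c*, a phosphatase that activates Cdk1, had 8.68, 8.71 and 8.66 in Neo/Null maxillary pools, against 8.84, 8.94 and 8.78 in Neo/Wt. All Neo/Null pools lay below all Neo/Wt pools, with a difference of -0.17 (95% interval -0.33 to -0.01), an unadjusted p of 0.0402 and an adjusted p of 0.99. A second probe set of the gene gave -0.11 (unadjusted p = 0.147), and its genotypes overlapped. In nasal tissue *Cdc25c* differed by 0.04. By their chosen probe sets all 5 genes of this group lay below 0 in maxillary tissue, from -0.17 to -0.03, also when arrays were centred or quantile normalized, and 0 of the 5 passed the adjusted test.

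The mitotic kinases and their spindle partners were also close between genotypes, and by their chosen probe sets all 5 lay below 0 in maxillary tissue, from -0.07 to -0.01, with 0 of the 5 past the adjusted test. *Plk1*, polo-like kinase 1, differed by 0.02 in nasal and -0.06 in maxillary tissue, and *Aurka*, the Aurora kinase of the spindle poles, by -0.04 and -0.07. Of these, *Plk1* had 9.84, 9.98 and 9.99 in Neo/Null nasal pools, against 9.91, 9.88 and 9.96 in Neo/Wt. In maxillary tissue it had 9.87, 9.79 and 9.83 in Neo/Null maxillary pools, against 9.91, 9.96 and 9.81 in Neo/Wt. Both comparisons of *Plk1* overlapped. *Tpx2*, which activates Aurora A on spindle microtubules, differed by 0.00 and -0.03. *Hmmr*, a spindle assembly factor, differed by -0.06 and -0.01. *Ttk*, the checkpoint kinase also called Mps1, had 10.10, 10.09 and 10.10 in Neo/Null nasal pools, against 10.12, 10.11 and 10.19 in Neo/Wt. Its genotypes did not overlap there, yet the difference was -0.05 ± 0.06 (SE). In maxillary tissue a second probe set of *Ttk* lay above 0, at 0.06, and so did 1 of the other probe sets of *Hmmr*, at 0.08, both with overlap.

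The chromosomal passenger complex corrects attachments of chromosomes to the spindle. By their chosen probe sets its 4 genes differed by -0.01 to 0.05 in nasal and -0.02 to 0.02 in maxillary tissue. They encode the kinase Aurora B (*Aurkb*), its scaffold (*Incenp*), survivin (*Birc5*) and borealin (*Cdca8*). *Birc5* had 11.25, 11.22 and 11.19 in Neo/Null nasal pools, against 11.25, 11.20 and 11.20 in Neo/Wt. In maxillary tissue it had 11.18, 11.14 and 11.21 in Neo/Null maxillary pools, against 11.13, 11.21 and 11.12 in Neo/Wt. The genotypes overlapped for all 4 genes in both prominences. Other probe sets of *Aurkb*, *Incenp* and *Cdca8* called present gave 0.01 to 0.21 in nasal and -0.11 to 0.10 in maxillary tissue, also with overlap. Of the 7 genes of the spindle checkpoint and the anaphase-promoting complex, *Cdc20*, the activator of that complex, differed by 0.01 in nasal and -0.02 in maxillary tissue. *Bub1b*, which encodes BubR1 of the checkpoint, differed by -0.05 and -0.10, and *Bub1*, a checkpoint kinase, by 0.03 and 0.07. In maxillary tissue *Bub1b* had 10.57, 10.53 and 10.53 in Neo/Null maxillary pools, against 10.71, 10.64 and 10.55 in Neo/Wt. These overlapped. Another probe set of *Bub1b* gave 0.06 in nasal tissue, with overlap, and -0.08 in maxillary tissue, with no overlap (adjusted p = 0.996). A second probe set of *Bub1* gave 0.06 and -0.02, with overlap.

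*Ube2c*, the ubiquitin-conjugating enzyme of the anaphase-promoting complex, had 11.33, 11.35 and 11.25 in Neo/Null maxillary pools, against 11.39, 11.47 and 11.37 in Neo/Wt. The genotypes did not overlap, at a difference of -0.10 ± 0.07 (SE, adjusted p = 0.996). In nasal tissue it differed by 0.04, with overlap. *Mad2l1* (Mad2 of the checkpoint), *Bub3* (its partner) and *Fbxo5* (Emi1, an inhibitor of the anaphase-promoting complex) differed by -0.08 to 0.05 across both prominences by their chosen probe sets. A dimmer probe set of *Bub3* had 6.53, 6.52 and 6.87 in Neo/Null maxillary pools, against 6.33, 6.43 and 6.36 in Neo/Wt, without overlap. It differed by 0.27 there (95% interval -0.0041 to 0.54, unadjusted p = 0.0531, adjusted p = 0.99), by 0.20 in nasal tissue, with overlap, and by 0.23 on average (unadjusted p = 0.0212, adjusted p = 0.98). Another probe set of the gene gave -0.05 on average, so that its probe sets did not share a direction.

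At the centromere and kinetochore, *Cenpa*, the histone variant that marks centromeres, was higher in every Neo/Null nasal pool (10.89, 10.89 and 10.93) than in any Neo/Wt nasal pool (10.86, 10.86 and 10.85). The difference was 0.04 ± 0.06 (SE, adjusted p = 1), and in maxillary tissue it was 0.02, with overlap. *Ndc80*, which binds microtubules at the outer kinetochore, had 8.82, 8.59 and 8.83 in Neo/Null maxillary pools, against 8.80, 8.92 and 8.99 in Neo/Wt. These overlapped, and the difference of -0.15 had an interval of -0.34 to 0.03. *Nuf2*, its partner in the same complex, differed by -0.02 in nasal and -0.03 in maxillary tissue. The kinetochore motor gene *Cenpe* and *Cenpf* differed by -0.02 to 0.04 across both by their chosen probe sets, and by -0.11 to 0.07 by others.

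By their chosen probe sets the spindle kinesins *Kif11* (Eg5), *Kif2c* (MCAK) and *Kif4* and the microtubule binder *Nusap1* differed by -0.0042 to 0.0399 in nasal and -0.01 to 0.03 in maxillary tissue. Other probe sets of *Kif11*, *Kif2c* and *Nusap1* called present gave -0.18 to 0.08 in nasal and -0.06 to 0.08 in maxillary tissue, with overlap. *Mki67*, the gene of the proliferation antigen Ki-67, had 11.59, 11.53 and 11.37 in Neo/Null nasal pools, against 11.47, 11.51 and 11.43 in Neo/Wt. It had 11.49, 11.43 and 11.47 in Neo/Null maxillary pools, against 11.51, 11.42 and 11.54 in Neo/Wt. Genotypes overlapped in both prominences, and the fold of Neo/Null over Neo/Wt was 1.02 (95% interval 0.914 to 1.13) in nasal and 0.979 (0.879 to 1.09) in maxillary tissue. For *Top2a*, topoisomerase II alpha of condensing chromosomes, it was 1.02 (0.925 to 1.12) and 0.989 (0.90 to 1.09). In nasal tissue *Top2a* had 12.09, 12.05 and 11.96 in Neo/Null nasal pools, against 12.06, 12.01 and 11.95 in Neo/Wt. In maxillary tissue it had 12.05, 12.04 and 11.999 in Neo/Null maxillary pools, against 12.03, 12.05 and 12.06 in Neo/Wt. The genotypes overlapped in both. They also overlapped by a second probe set of *Top2a*, at folds of 0.92 in nasal and 0.99 in maxillary tissue.

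*Ect2* stood apart among the genes of the midzone and cytokinesis. It encodes the exchange factor that activates RhoA at the cell equator. In maxillary tissue it had 8.80, 8.90 and 8.85 in Neo/Null pools, against 8.56, 8.48 and 8.69 in Neo/Wt pools. All Neo/Null pools lay above all Neo/Wt pools, by 0.27 on average (95% interval 0.10 to 0.44), a fold of 1.21. The unadjusted p was 0.00414, but the adjusted p over all probe sets was 0.794, so the gene did not pass. Without the Neo/Wt pool of replicate 3 the difference was 0.33 (adjusted p = 0.243), and over all alternatives the adjusted p lay between 0.243 and 1. Of the 10 neuronal markers tested in maxillary tissue, 9 lay above 0 between genotypes, with a median of 1.102, and 0 passed. Without the Neo/Wt pool of replicate 3, 8 of the 10 lay above 0, with a median of 0.29.

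In nasal tissue *Ect2* had 9.01, 9.03 and 8.93 in Neo/Null pools, against 9.003, 9.10 and 8.89 in Neo/Wt. These overlapped, at a difference of -0.01. The difference in nasal minus that in maxillary tissue was -0.28 (95% interval -0.52 to -0.04, unadjusted p = 0.0247, adjusted p = 0.999), and averaged over both prominences *Ect2* differed by 0.13 (unadjusted p = 0.0335, adjusted p = 0.983). By chosen probe sets, 1 of 37 members thus passed an unadjusted p under 0.05 for the difference between prominences (3.65% of all probe sets). For the average it was also 1 of 37 (5.07%), with *Ect2* in both. For the difference between prominences, a second probe set of *Anln* gave -0.29 (unadjusted p = 0.0268, adjusted p = 0.999). Another probe set of *Incenp* gave 0.26 (unadjusted p = 0.0435, adjusted p = 0.999). *Ect2* has a single probe set, and the part of neuronal cells in its values was not tested.

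By their chosen probe sets the other 4 midzone genes lay below 0 in maxillary tissue, and 0 of them passed. *Kif23*, the kinesin of the centralspindlin complex to which Ect2 binds, had 9.99, 9.88 and 9.97 in Neo/Null maxillary pools, against 10.07, 10.03 and 10.06 in Neo/Wt. It differed by -0.10 ± 0.07 (SE, adjusted p = 0.996), with no overlap, and its second probe set by -0.0042, with overlap. *Kif20a*, a kinesin of the midzone, differed by -0.09 and *Prc1*, which bundles midzone microtubules, by -0.07, also with no overlap between genotypes, while a second probe set of *Prc1* gave 0.03. *Anln*, anillin of the contractile ring, differed by -0.02, and its second probe set by 0.13 (adjusted p = 0.996). In nasal tissue that second probe set was lower in every Neo/Null pool than in any Neo/Wt pool, by -0.16 (unadjusted p = 0.0805).

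**Figure D2:**
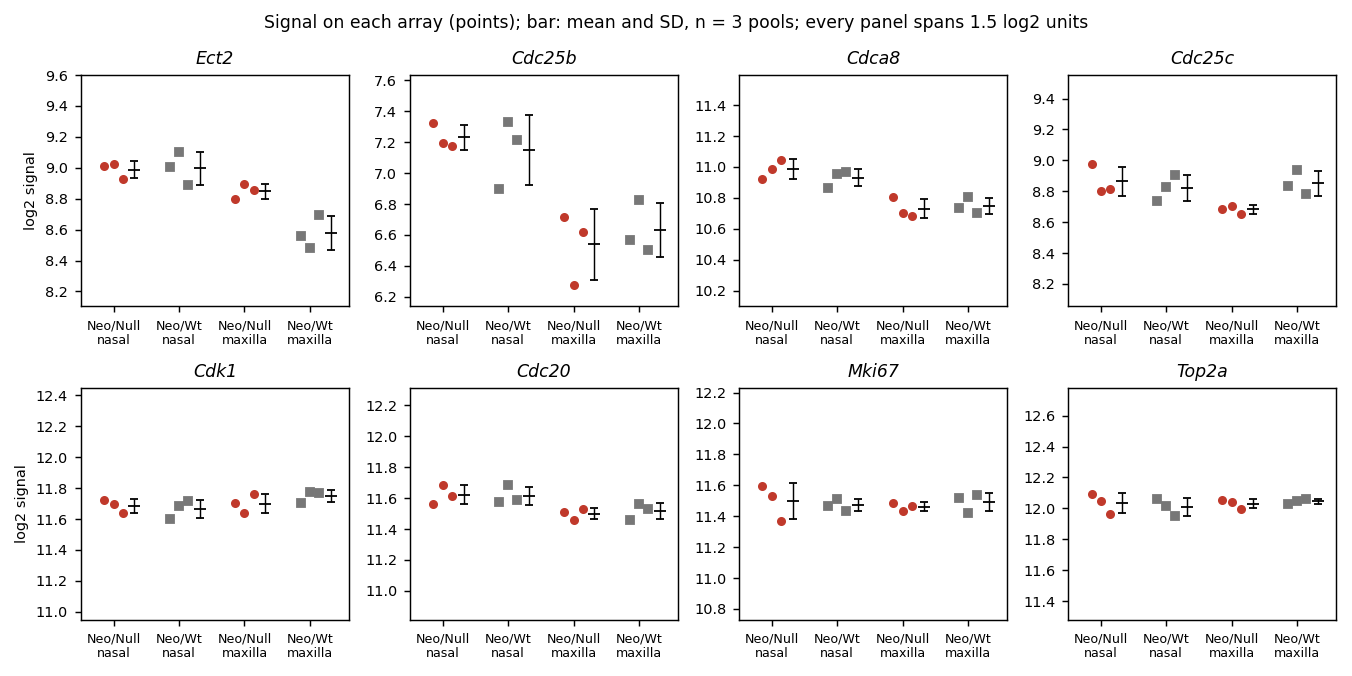
Log2 signal on each of the 12 arrays for 8 genes, with Neo/Null pools as red circles and Neo/Wt pools as grey squares, and the mean and SD of 3 pools beside each group. The Neo/Wt maxillary pools of *Ect2* lie below its other 9 values, every nasal pool of *Cdc25b* and *Cdca8* lies above every maxillary pool of the same genotype, and *Cdk1*, *Cdc20*, *Mki67* and *Top2a* overlap between genotypes.

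Between prominences most members were also close, with a few exceptions. *Cdc25b* was higher in nasal than in maxillary tissue in both genotypes, *Ect2* passed the test in Neo/Wt and *Cdca8* passed it in Neo/Null. In Neo/Null 2 of 37 genes passed the adjusted threshold, against 8.24% of probe sets, and in Neo/Wt 2 of 37, against 6.84%, and all were higher in nasal tissue, as were 4.85% and 3.19% of probe sets in Neo/Null and Neo/Wt. By their chosen probe sets none of the 37 was lower at this threshold, against 3.39% of probe sets in Neo/Null and 3.64% in Neo/Wt. A second probe set of *Anln* was lower in nasal tissue of Neo/Null (-0.33, adjusted p = 0.0239). At an unadjusted p under 0.05 the counts were 6 of 37 (21.1% of all) in Neo/Null and 3 of 37 (19.6%) in Neo/Wt.

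Nasal and maxillary pools did not overlap for 13 of 37 members in Neo/Null (28.9% of all probe sets) and for 6 of 37 in Neo/Wt (25.7%). In Neo/Null 11 of these were higher in nasal tissue (16.5% of probe sets) and 2 lower (12.4%), and in Neo/Wt 5 were higher (10.7%) and 1 lower (15%). A difference of over 0.32 was seen in 1 of 37 members in Neo/Null (10.8%) and in 2 of 37 in Neo/Wt (9.75%). The 95% interval lay within 0.32 of 0 for 32 of 37 members in Neo/Null (56.8%) and for 33 of 37 in Neo/Wt (59.2%). The median difference of the members was 0.04 in Neo/Null, with 0.02 for all genes, and 0.02 in Neo/Wt, with -0.02 for all genes. In Neo/Null 31 of 37 members were above 0, against 50.1% of probe sets, and 28 and 30 under the other scalings. In Neo/Wt 20 of 37 were above 0, against 43.2%, and 26 and 21 under the other scalings.

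*Cdc25b* encodes the phosphatase that starts Cdk1 activation in late G2. In Neo/Null its log2 signals were 7.32, 7.19 and 7.17 in nasal pools, against 6.72, 6.28 and 6.62 in maxillary pools. In Neo/Wt they were 6.90, 7.33 and 7.22 in nasal pools, against 6.57, 6.83 and 6.50 in maxillary pools. Every nasal pool lay above every maxillary pool of the same genotype.

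The difference of *Cdc25b* was 0.69 in Neo/Null (95% interval 0.40 to 0.98, adjusted p = 0.00539), a fold of 1.61 over maxillary tissue, and 0.52 in Neo/Wt (0.23 to 0.80, adjusted p = 0.0341), a fold of 1.43. With the replicate number as a block the adjusted p was 0.0114 in Neo/Null and 0.0514 in Neo/Wt, so that the call in Neo/Wt was lost, as it was without any 1 of 4 Neo/Wt pools, nasal replicates 2 and 3 and maxillary replicates 1 and 3 (adjusted p 0.102 to 0.145), in a fit to the 6 Neo/Wt arrays only (0.0552) and with no filter on present calls (0.0515). Without the Neo/Wt maxillary pool of replicate 3 its difference in Neo/Wt was 0.45 (adjusted p = 0.111). The single probe set of *Cdc25b* also had the widest range over the arrays among the members, 1.05, where the median range was 0.203 and the narrowest, of *Bub3*, 0.109. Between genotypes it differed by 0.08 in nasal and -0.09 in maxillary tissue, both with overlap.

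*Ect2* was higher in nasal tissue of Neo/Wt by 0.42 (95% interval 0.25 to 0.59, adjusted p = 0.00472), a fold of 1.34, and differed by 0.14 in Neo/Null (-0.03 to 0.31, adjusted p = 0.34), with no overlap in either genotype. The Neo/Wt maxillary pools that set this difference are also those of the genotype comparison, so that the results share samples. Without the Neo/Wt maxillary pool of replicate 3 the difference of *Ect2* in Neo/Wt was 0.48 (adjusted p = 0.00401). *Racgap1*, the partner of *Kif23* in centralspindlin, was in the list of other spindle genes and was higher in nasal tissue in both genotypes, by 0.41 in Neo/Null (adjusted p = 0.00563) and 0.30 in Neo/Wt (adjusted p = 0.0383). *Kif23* itself differed by 0.09 in Neo/Null and -0.06 in Neo/Wt. *Prc1* had 9.84, 9.77 and 9.68 in Neo/Null nasal pools, against 9.60, 9.61 and 9.63 in Neo/Null maxillary pools. In Neo/Wt it had 9.77, 9.77 and 9.85 in Neo/Wt nasal pools, against 9.70, 9.66 and 9.67 in Neo/Wt maxillary pools. By its chosen probe set *Prc1* was without overlap in both genotypes, at 0.15 (adjusted p = 0.19) and 0.12 (adjusted p = 0.342). Its second probe set gave 0.07 in Neo/Null, with overlap (adjusted p = 0.579), and 0.16 in Neo/Wt, with no overlap (adjusted p = 0.166).

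*Cdca8*, borealin, had 10.92, 10.99 and 11.05 in Neo/Null nasal pools, against 10.80, 10.70 and 10.69 in Neo/Null maxillary pools. In Neo/Wt it had 10.87, 10.96 and 10.97 in nasal pools, against 10.74, 10.80 and 10.70 in maxillary pools. The groups did not overlap in either genotype, with a difference of 0.25 in Neo/Null (adjusted p = 0.0337) and 0.18 in Neo/Wt (adjusted p = 0.142). Its other probe sets gave 0.12 and 0.17 in Neo/Null and 0.22 and 0.06 in Neo/Wt, none past the threshold, and the call in Neo/Null was lost without any 1 of 4 Neo/Null pools, replicates 2 and 3 of either prominence (adjusted p 0.0906 to 0.13), in a fit to the 6 Neo/Null arrays only (0.0831), with arrays centred on their median (0.0592) and with no filter on present calls (0.0503). By their chosen probe sets the remaining passenger genes lay above 0 as well, with 0 of these 3 past the adjusted threshold. *Aurkb* differed by 0.18 in Neo/Null and 0.16 in Neo/Wt, *Incenp* by 0.06 and 0.08, and *Birc5* by 0.04 and 0.06. Other probe sets of *Incenp* gave -0.02 to 0.20 in Neo/Null and -0.16 to -0.05 in Neo/Wt. *Aurkb* had 9.47, 9.66 and 9.53 in Neo/Null nasal pools, against 9.39, 9.42 and 9.32 in Neo/Null maxillary pools. In Neo/Wt it had 9.52, 9.62 and 9.52 in Neo/Wt nasal pools, against 9.38, 9.52 and 9.29 in Neo/Wt maxillary pools. Its prominences were apart in Neo/Null and overlapped in Neo/Wt, with adjusted p of 0.213 and 0.295.

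Of the members below 0, *Anln*, anillin, had lower signals in every Neo/Null nasal pool than in any Neo/Null maxillary pool, at a difference of -0.16 (adjusted p = 0.29), and differed by -0.14 in Neo/Wt (adjusted p = 0.374). Its second probe set gave -0.33 in Neo/Null (adjusted p = 0.0239) and -0.04 in Neo/Wt. *Anln* had 10.33, 10.26 and 10.16 in Neo/Null nasal pools, against 10.395, 10.38 and 10.44 in Neo/Null maxillary pools. In Neo/Wt it had 10.33, 10.29 and 10.24 in Neo/Wt nasal pools, against 10.43, 10.28 and 10.56 in Neo/Wt maxillary pools. *Ttk* differed by -0.05 in Neo/Null, with no overlap and an adjusted p of 0.705. *Cdk1* differed by -0.01 in Neo/Null and -0.08 in Neo/Wt, *Top2a* by 0.00 and -0.04, and *Mki67* by 0.04 and -0.02. By their chosen probe sets the adjusted p of these 3 genes between prominences was 0.554 or more. A second probe set of *Top2a* gave -0.18 in Neo/Null (adjusted p = 0.347) and -0.07 in Neo/Wt (adjusted p = 0.752), both with overlap.

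**Figure D3:**
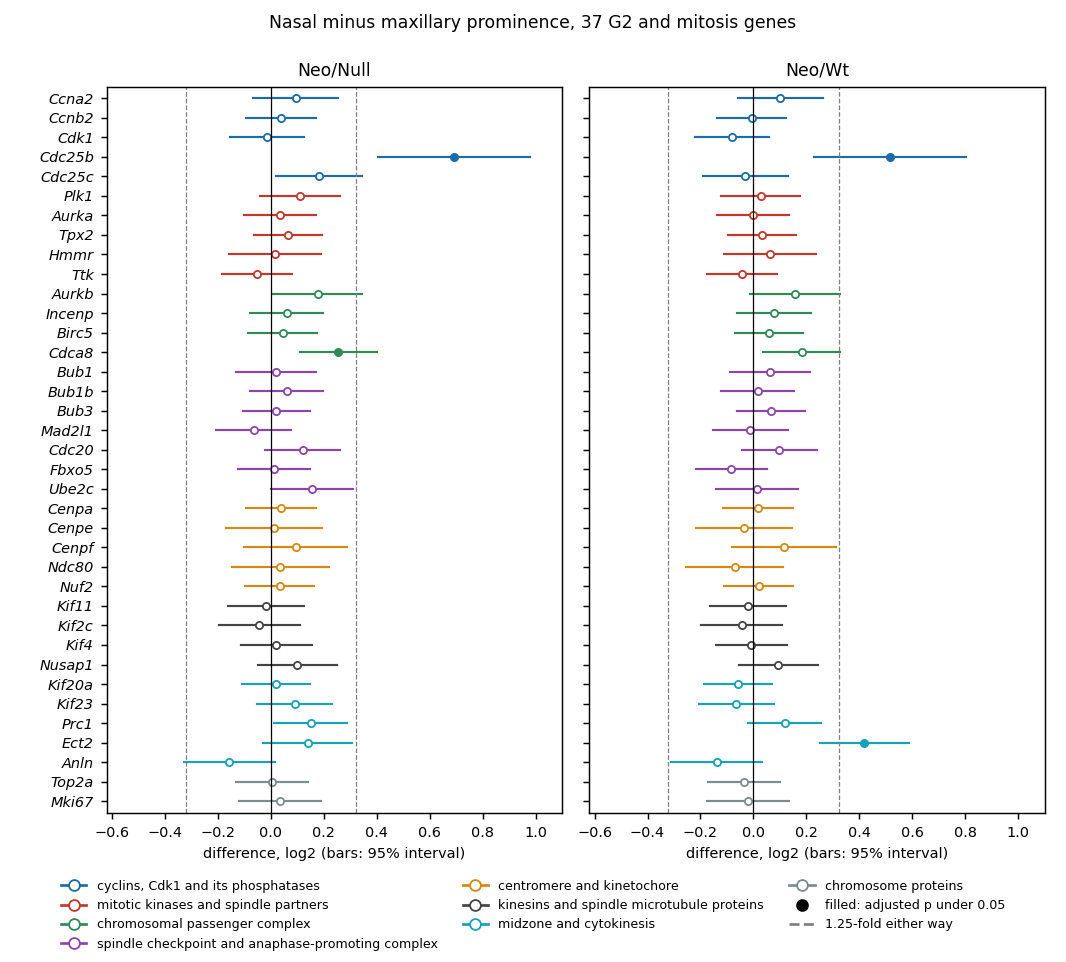
Difference between nasal and maxillary tissue for each of the 37 genes, in log2 units, in Neo/Null (left) and Neo/Wt (right), with 95% intervals and dashed lines at 0.32 on either side of 0. Filled points passed the adjusted threshold: *Cdc25b* in both genotypes, *Cdca8* in Neo/Null and *Ect2* in Neo/Wt.

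Other genes of the cycle were tested from 7 lists: 14 regulators of the G2 and mitosis program, 27 other kinetochore genes, 16 of the anaphase-promoting complex and separase, 17 of condensin and cohesin, 27 other centrosome and spindle genes, 39 of S phase, and 12 (11 in maxillary tissue) of cell cycle exit. For genotype 0 genes of any list passed the adjusted threshold in either prominence. At an unadjusted p under 0.05 a list had 0 to 1 genes in nasal tissue, against 3.88% of all probe sets. In maxillary tissue a list had 0 to 3, against 4.97%. At that p in maxillary tissue 3 of 11 exit genes were higher. Of 27 centrosome and spindle genes 1 was higher and 2 were lower there. *Foxm1*, the forkhead factor of G2 genes, differed by 0.25 between genotypes in nasal tissue (unadjusted p = 0.0219, adjusted p = 1). Between prominences of Neo/Null, 2 of the 14 regulators were higher in nasal tissue: *Foxm1* by 0.42 (adjusted p = 0.0147) and *Mybl2*, the B-Myb factor of the MuvB complex, by 0.43 (adjusted p = 0.00249), where 4.85% of all probe sets were higher. In Neo/Wt 0 of the 14 passed, and *Mybl2* differed by 0.24 (adjusted p = 0.0751) and *Foxm1* by -0.01 (adjusted p = 0.977), with overlap. The genotype difference of *Foxm1* in nasal minus that in maxillary tissue was 0.43 (unadjusted p = 0.00742, adjusted p = 0.999). Of the other lists, 2 of 27 centrosome and spindle genes were higher in nasal tissue of Neo/Null, *Racgap1* and *Kif18b* (0.26, adjusted p = 0.0463), a mitotic kinesin. Of the 39 S phase genes 1 was higher there, *Rfc5* (0.21, adjusted p = 0.0485), a clamp loader subunit of replication. Both counts stand beside the 4.85% of all probe sets. The lists of kinetochore, anaphase-promoting complex and condensin genes had 0 calls in either genotype. They had 0 to 3 at an unadjusted p under 0.05, against 21.1% of all probe sets in Neo/Null and 19.6% in Neo/Wt.

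The 39 genes of S phase and DNA replication had a median difference of 0.00 between genotypes in nasal tissue and -0.04 in maxillary tissue. In maxillary tissue 31 of the 39 lay below 0 (31 and 32 under the other scalings), and 0 passed. In nasal tissue 20 of 39 lay below 0, but 33 when arrays were centred and 24 after quantile normalization. The cyclin gene *Ccne2* lay above 0 in maxillary tissue, by 0.41 (unadjusted p = 0.00129, adjusted p = 0.67). Of 12 genes of cell cycle exit, *Cdkn1a*, the Cdk inhibitor p21, differed between genotypes by 0.30 in nasal and 0.29 in maxillary tissue, with adjusted p of 1 and 0.99. *Cdkn1c*, the Cdk inhibitor p57, was lower in nasal than in maxillary tissue, by -0.64 in Neo/Null (adjusted p = 0.00528) and -0.78 in Neo/Wt (adjusted p = 0.00157).

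Markers of other cells moved with prominence. Between genotypes 0 of them passed the adjusted test, but some lists lay mostly to 1 side. In nasal tissue 8 of 8 forebrain markers tested lay above 0 (median 0.26). There 9 of 10 crest markers and 6 of 6 erythroid markers lay below 0 (medians -0.07 and -0.12). In maxillary tissue 7 of 9 surface ectoderm markers lay above 0 (0.12) and 7 of 10 crest markers below 0 (-0.14). Without the Neo/Wt maxillary pool of replicate 3 these were 7 of 9 (0.27) and 8 of 10 (-0.24), and 0 passed. The part of these cells in the members' genotype differences was not tested. The 11 markers of forebrain neuroepithelium averaged 6.56 to 6.63 in Neo/Null nasal pools, against 4.93 to 5.30 in Neo/Null maxillary pools, and 6.35 to 6.56 in Neo/Wt nasal pools, against 5.11 to 5.37 in Neo/Wt maxillary pools. Only 3 of the 11 were called present in every group, and 3 were absent in all. The 37 members averaged 10.36 to 10.42 in Neo/Null nasal pools, against 10.29 to 10.34 in Neo/Null maxillary pools, and 10.37 to 10.402 in Neo/Wt nasal pools, against 10.34 to 10.36 in Neo/Wt maxillary pools. The 11 crest mesenchyme markers averaged 8.25 to 8.67 in Neo/Null nasal pools, against 9.09 to 9.23 in Neo/Null maxillary pools, and 8.37 to 8.63 in Neo/Wt nasal pools, against 9.13 to 9.42 in Neo/Wt maxillary pools. These crest genes went both ways. Of the 9 tested, 4 were lower and 1 was higher in nasal tissue of Neo/Null, and 5 were lower and 1 was higher in Neo/Wt. Of all probe sets tested, 3.39% were lower and 4.85% higher in Neo/Null, and 3.64% and 3.19% in Neo/Wt. *Dlx2* differed by -2.41 in Neo/Null and -2.28 in Neo/Wt, and *Alx1* by 1.94 and 1.48, all past the adjusted test.

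Endothelial and macrophage markers were on the low side in nasal tissue. The 9 endothelial markers averaged 6.86 to 7.09 in Neo/Null nasal pools, against 7.22 to 7.42 in Neo/Null maxillary pools, and 6.902 to 6.97 in Neo/Wt nasal pools, against 7.27 to 7.42 in Neo/Wt maxillary pools. All tested lay below 0, and 5 of 9 in Neo/Null and 4 of 8 in Neo/Wt passed, where 3.39% and 3.64% of all probe sets were lower. The 9 macrophage markers averaged 5.77 to 6.098 in Neo/Null nasal pools, against 6.47 to 6.58 in Neo/Null maxillary pools, and 5.81 to 5.97 in Neo/Wt nasal pools, against 6.28 to 6.55 in Neo/Wt maxillary pools. All tested lay below 0 here too, and 5 of 7 in Neo/Null and 3 of 6 in Neo/Wt passed. Of surface ectoderm genes 3 were higher and 2 lower in nasal tissue of each genotype, with medians of 0.36 over 8 tested in Neo/Null and 0.295 over 9 in Neo/Wt, and erythroid genes had 0 calls in either. Of neuronal markers 4 of 11 were lower and 1 was higher in nasal tissue of Neo/Null, and 3 of 10 were lower in Neo/Wt, or 5 of 10 without the Neo/Wt maxillary pool of replicate 3. The part of these cells in the values of *Cdc25b*, *Ect2* and *Cdca8* was not tested.

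**Figure D4:**
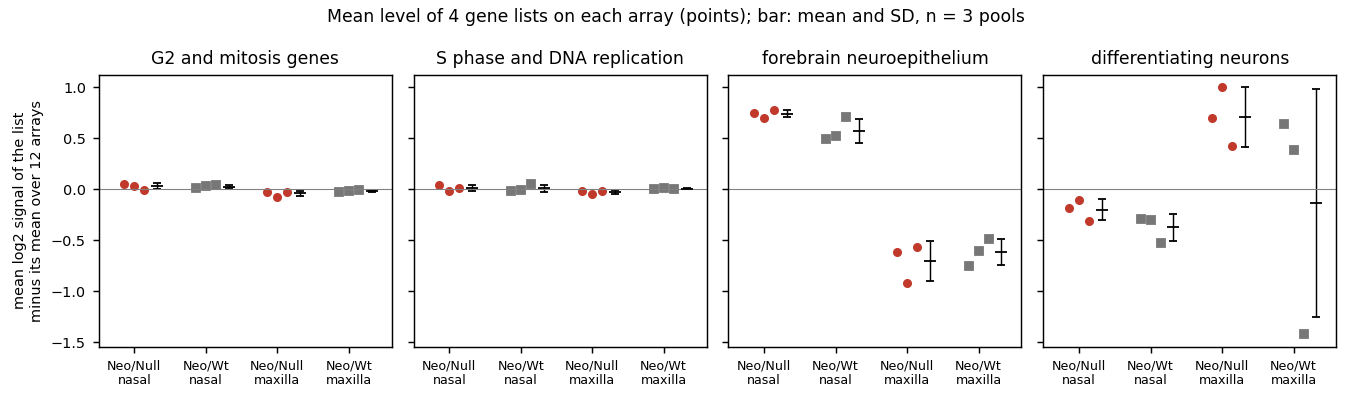
Mean log2 signal of the members, of S phase genes, of forebrain markers and of neuronal markers on each array, less the mean of that list over the 12 arrays, with the mean and SD of 3 pools beside each group. The members and S phase genes stay near 0 in all groups, the forebrain markers lie above 0 in nasal and below 0 in maxillary pools, and the Neo/Wt maxillary pool of replicate 3 has the lowest neuronal value.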

How the data were processed

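Labelled RNA of 12 pools was hybridized to Affymetrix Mouse430 2.0 arrays. The authors processed the arrays in GeneChip Operating Software, scaled each to a common target intensity, and deposited log2 signals (2.07 to 14.3) per probe set, and how probes were summarised is not given in the sources used here. A detection score per probe set and group (1 for present, -1 for absent, 0 for variable), deposited by the authors, served as a filter. In the table with those scores 12 columns of per-array values were not used.

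With limma 3.58.1 in R 4.3.3 (lmFit, eBayes), the means of the 4 groups were estimated for 45037 probe sets, without 64 controls. There were 8 residual and 4.72 prior degrees of freedom. The Benjamini-Hochberg adjustment ran over all probe sets that were called present in the compared groups, at a threshold of 0.05. Errors are standard errors of the fit, and 95% intervals come from its t distribution. Arrays correlated at 0.986 to 0.9975 and none was a copy of another. Of the probe sets 34945 had 1 gene symbol, 932 several and 9160 none in the annotation. The fit was tested on simulated data. The pools are separate biological samples by the labels, and the number of arrays limits the precision.

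The members, lists and roles were chosen with earlier results of these data known. Full values are given for up to 6 members with the smallest p in each comparison between 2 groups and for markers of division (*Cdk1*, *Plk1*, *Aurkb*, *Mki67*, *Top2a*, *Birc5*), and of the other lists up to 4 genes with the smallest p are named. Members whose groups did not overlap were added after their values were seen. Pools of the same number shared deviations between prominences (correlation 0.221 to 0.296 in Neo/Null, 0.205 to 0.289 in Neo/Wt) and between genotypes in maxillary tissue (0.173 to 0.487) but not in nasal tissue (-0.175 to 0.216). Between prominences all 3 nasal pools of each genotype were closest to the maxillary pool of their own number. Between genotypes in maxillary tissue this held for 2 Neo/Null pools only. The pairing comes from these correlations, not from the labels, and a fit with the replicate number as a block was an alternative. Other alternatives were no presence filter, the mean of a gene's probe sets, other scalings, an offset of 32, 6 arrays only, array weights, robust variance and each pool left out.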

Additional observations from a re-analysis of the deposited data

How the results depend on the processing

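The 0 members called for genotype in nasal tissue, in maxillary tissue, on average and for the difference between prominences stayed 0 under every alternative run. Between prominences the counts moved. In Neo/Null the 2 members called were 1 with no presence filter, with arrays centred on their median and with 6 arrays only, 3 with the mean of probe sets or an offset of 32, and 1 to 2 with a pool left out. In Neo/Wt the 2 were 1 with no presence filter, with the replicate block and with 6 arrays only, 3 with an offset of 32 or robust variance, and 1 to 2 with a pool left out. The count in Neo/Wt was 1 without nasal replicate 2, nasal replicate 3, maxillary replicate 1 or maxillary replicate 3, and that in Neo/Null was 1 without nasal replicate 2 or 3 or maxillary replicate 2 or 3. The replicate block changed no other call. With arrays centred, the median difference of the members was -0.0378 for genotype in nasal tissue, -0.0135 for the difference between prominences and 0.0442 between prominences of Neo/Wt. That scaling took the share of higher among probe sets at an unadjusted p under 0.05 in nasal tissue to 51%, against 81.7% as reported, and quantile normalization to 67.4%. Of the values of single genes 2316 kept their call or moved by less than 1 SD, 22 moved by more, 4 gained and 14 lost a call, and 0 turned their sign with a call. The lost calls were those of *Cdca8* in Neo/Null (adjusted p 0.0503 to 0.13) and *Cdc25b* in Neo/Wt (0.0514 to 0.145). The gained ones were *Anln* (0.0407) and *Prc1* (0.0337) in Neo/Null and *Cdca8* in Neo/Wt (0.0348 and 0.0193). The median of the neuronal markers without the Neo/Wt maxillary pool of replicate 3 (0.29, against 1.102 as reported) was added after the data were seen. So were the values of the surface ectoderm and crest markers without that pool. The causes were not tested.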
